A study of Homo sapiens with 4 samples.

Results

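The hairpins miR-942, miR-3944, miR-675 and miR-1343 were chosen by the arm counts of these same libraries, because the read count of one mature arm per read of the other was lower after ERH knockdown than in control cells. They contribute 8 of the 2366 human miRNA rows counted, and they are 4 of the 109 hairpins whose 5p and 3p arms both passed the low-count filter. The knockdown comparison itself chose them, so every knockdown value of these hairpins below is a description, and the size and direction of the shift were fixed by that choice. Small RNAs came from K562-dCas9-KRAB cells, a human chronic myeloid leukaemia line that carries a dead Cas9 fused to the KRAB repressor, so that a guide RNA silences the gene it targets. In the knockdown group, polyclonal cell lines with guide RNA 1 or guide RNA 2 against ERH received 0.05 µg/ml doxycycline and were sampled on day 5. The control group was the same pair of lines on day 5 without doxycycline, so each group has 2 libraries, 1 per guide RNA, and both groups carry dCas9-KRAB and an ERH guide RNA. Cells given doxycycline without an ERH guide RNA were not analysed here, and small-RNA libraries hold no measure of ERH mRNA.

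A miRNA hairpin is cut from its primary transcript by the Microprocessor, made of the nuclease Drosha and its partner DGCR8, which ERH binds, and the hairpin is then cut by Dicer into a short duplex of its 5p and 3p arms. One strand of the duplex is kept in an Argonaute protein and the other is mostly discarded, and human Argonaute is known to favour a strand that begins with U or A and whose 5′ end is loosely paired. Both arms come from one precursor, so a ratio of arm counts within a library does not depend on how libraries are scaled to each other.

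The 8 mature sequences are shown because the arms of a hairpin differ in their seed, the stretch that pairs with target mRNAs, so a shifted arm ratio changes which seed is counted more. They are RefSeq sequences on GRCh38.p14, and all 8 names matched. Capitals mark the seed, bases 2 to 8.
hsa-miR-942-5p: uCUUCUCUguuuuggccaugug
hsa-miR-942-3p: cACAUGGCcgaaacagagaagu
hsa-miR-675-5p: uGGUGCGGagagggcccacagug
hsa-miR-675-3p: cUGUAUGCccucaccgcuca
hsa-miR-1343-5p: uGGGGAGCggcccccggguggg
hsa-miR-1343-3p: cUCCUGGGgcccgcacucucgc
hsa-miR-3944-5p: uGUGCAGCaggccaaccgaga
hsa-miR-3944-3p: uUCGGGCUggccugcugcuccgg
No seed was shared among the 8. One other annotated human miRNA, miR-4466, has the seed of miR-675-5p. It had 45 and 34 reads in knockdown libraries and 18 and 39 in controls, and did not pass the per-miRNA test. The closest other mature human miRNA differed from each arm by at least 5 bases, counting ungapped alignments shifted by up to 2 bases. How the authors assigned reads that match several miRNAs is not given in the sources used here.

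The hairpins lie at separate loci, given here on GRCh38 with GENCODE 29 annotation. MIR942 is at chr1:117094643-117094728 on the plus strand, in an intron of TTF2, a transcription termination factor. MIR675 is at chr11:1996759-1996831 on the minus strand, in an exon of H19, the imprinted long noncoding RNA from which it is cut; in mouse it is known to restrain placental growth. MIR1343 is at chr11:34941837-34941920 on the plus strand, in an intron of PDHX, a component of the pyruvate dehydrogenase complex. MIR3944 is at chr10:133371556-133371663 on the minus strand, in an intron of ECHS1, a mitochondrial enoyl-CoA hydratase of fatty acid oxidation. The nearest annotated miRNA hairpin on the same strand was 124 kb away for MIR3944 and farther for the others, at 137 kb for MIR675, 423 kb for MIR942 and 1068 kb for MIR1343. None of the 4 is therefore a close neighbour of another annotated hairpin on its strand. Hairpins on the opposite strand were not searched. For 3 of them the RefSeq hairpin is shown so that the place of each arm can be seen, with the 2 arms in capitals and the loop between them in lower case.
MIR675: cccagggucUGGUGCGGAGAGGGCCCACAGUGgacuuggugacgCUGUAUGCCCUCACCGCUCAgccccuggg
MIR1343: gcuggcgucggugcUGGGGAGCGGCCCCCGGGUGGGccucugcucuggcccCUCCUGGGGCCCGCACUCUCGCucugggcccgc
MIR3944: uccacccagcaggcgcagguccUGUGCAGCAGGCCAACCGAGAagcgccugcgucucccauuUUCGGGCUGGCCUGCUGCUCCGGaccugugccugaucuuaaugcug
The stretch between the arms was 12 bases in MIR675, 15 in MIR1343 and 19 in MIR3944.

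The knockdown libraries held 2227374 (guide RNA 1) and 2393565 (guide RNA 2) miRNA reads, and the control libraries held 1430434 and 2476700. As a check of the K562 label, the erythroid miR-451a ran from 24072 to 25243 CPM (reads scaled to the same miRNA total in every library) over the 4 libraries, miR-144-3p from 7734 to 18704, miR-144-5p from 929 to 2419 and miR-486-5p from 5562 to 7578. Of miRNAs of other cell types, the muscle miRNAs miR-206 and miR-1-3p had 0 and 1 to 8 reads, the neuronal miR-124-3p 0 to 1 and the liver miR-122-5p 1 to 5. A count of 0 allows up to 3 reads, which is 1.21 to 2.10 CPM. The 8 arms are of modest or low abundance, with ranks 166 to 386 by mean CPM. Each passed the filter, but miR-3944-3p reached its level of about 4.33 CPM in both knockdown libraries and in neither control. Ratios below carry a 95% interval from the exact Clopper-Pearson interval of the arm's share. Such intervals cover counting error only, as the labels mention no molecular identifiers. In bulk libraries, fewer cells of a kind and less RNA per cell cannot be told apart.

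miR-942 was the most deeply counted of the 4 hairpins, and its 5p arm strongly outnumbered its 3p arm in every library. hsa-miR-942-5p had 340 and 394 reads in the knockdown libraries (guide RNA 1 and guide RNA 2), against 137 and 207 in the controls. hsa-miR-942-3p had 17 and 23 reads after knockdown, against 19 and 27 in controls. The 5p count was higher in each knockdown library than in either control. The 3p counts come from libraries of unlike depth. In CPM, miR-942-3p stood at 7.63 and 9.61 after knockdown and at 13.3 and 10.9 in controls. Per read of miR-942-5p there were 0.050 reads of miR-942-3p after knockdown with guide RNA 1 (0.029 to 0.081), against 0.139 in its control (0.081 to 0.225). With guide RNA 2 the ratio was 0.058 after knockdown (0.037 to 0.089), against 0.130 in its control (0.084 to 0.195). The 3p share of the hairpin's reads was 4.76% and 5.52% after knockdown and 12.2% and 11.5% in controls. Both knockdown ratios lay below both control ratios, and the ratio averaged 0.054 ± 0.006 after knockdown, against 0.135 ± 0.006 in controls (SD, n = 2 each). The knockdown ratio was 0.362 times its control with guide RNA 1 (0.185 to 0.712) and 0.449 times with guide RNA 2 (0.253 to 0.799).

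miR-675, the hairpin of H19, had a larger 5p excess after knockdown than in controls. In the controls the arms were level with guide RNA 1, and with guide RNA 2 the 5p arm was ahead within counting error. hsa-miR-675-5p had 69 and 91 reads in the knockdown libraries, against 16 and 41 in controls. hsa-miR-675-3p had 30 and 33 reads after knockdown, against 17 and 28 in controls. The 5p arm led clearly in both knockdown libraries. Per read of miR-675-5p there were 0.435 reads of miR-675-3p after knockdown with guide RNA 1 (0.273 to 0.677), against 1.06 in its control (0.505 to 2.25). With guide RNA 2 the ratio was 0.363 after knockdown (0.236 to 0.546), against 0.683 in its control (0.407 to 1.13). The groups did not overlap, but within each line the intervals of the knockdown and control ratios did. The knockdown ratio was 0.414 times its control with guide RNA 1 (0.187 to 0.917) and 0.533 times with guide RNA 2 (0.287 to 0.991), the second interval ending just short of 1.

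In miR-1343 the arm that was counted more differed between the conditions, on very few control reads. hsa-miR-1343-5p had 39 and 33 reads in the knockdown libraries, against 4 and 20 in controls. hsa-miR-1343-3p had 19 and 17 reads after knockdown, against 8 and 21 in controls. The 5p arm was the more abundant in both knockdown libraries. The 3p arm was ahead within counting error in the guide RNA 1 control and level with the 5p arm in the guide RNA 2 control. Per read of miR-1343-5p there were 0.487 reads of miR-1343-3p after knockdown with guide RNA 1 (0.266 to 0.864), against 2 in its control (0.536 to 9.08). With guide RNA 2 the ratio was 0.515 after knockdown (0.269 to 0.952), against 1.05 in its control (0.542 to 2.04). The knockdown libraries were close to each other while the controls lay far apart, at 0.501 ± 0.020 after knockdown and 1.53 ± 0.67 in controls (SD, n = 2 each). The knockdown ratio was 0.261 times its control with guide RNA 1 (0.074 to 0.926) and 0.498 times with guide RNA 2 (0.216 to 1.15), an interval that includes 1. The guide RNA 1 control, with 12 reads of this hairpin, carries much of the difference. Without that library the mean log2 change was -1.05, against -1.47 with it.

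miR-3944 is the one hairpin of the 4 in which the 3p arm was the one relatively higher after knockdown. hsa-miR-3944-3p had 27 and 39 reads in the knockdown libraries, against 5 and 6 in controls. hsa-miR-3944-5p had 21 and 24 reads after knockdown, against 11 and 20 in controls. The 3p arm had more reads than the 5p arm after knockdown in both lines, and fewer in both controls. Of the per-library ratios below, only that of the guide RNA 2 control has an interval that excludes 1. Per read of miR-3944-3p there were 0.778 reads of miR-3944-5p after knockdown with guide RNA 1 (0.418 to 1.43), against 2.20 in its control (0.705 to 8.08). With guide RNA 2 the ratio was 0.615 after knockdown (0.354 to 1.05), against 3.33 in its control (1.29 to 10.1). Both knockdown ratios were below both controls, with means of 0.697 ± 0.115 after knockdown and 2.77 ± 0.80 in controls (SD, n = 2 each). The knockdown ratio was 0.374 times its control with guide RNA 1 (0.117 to 1.20), which includes 1, and 0.197 times with guide RNA 2 (0.071 to 0.543).

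**Figure D1:**
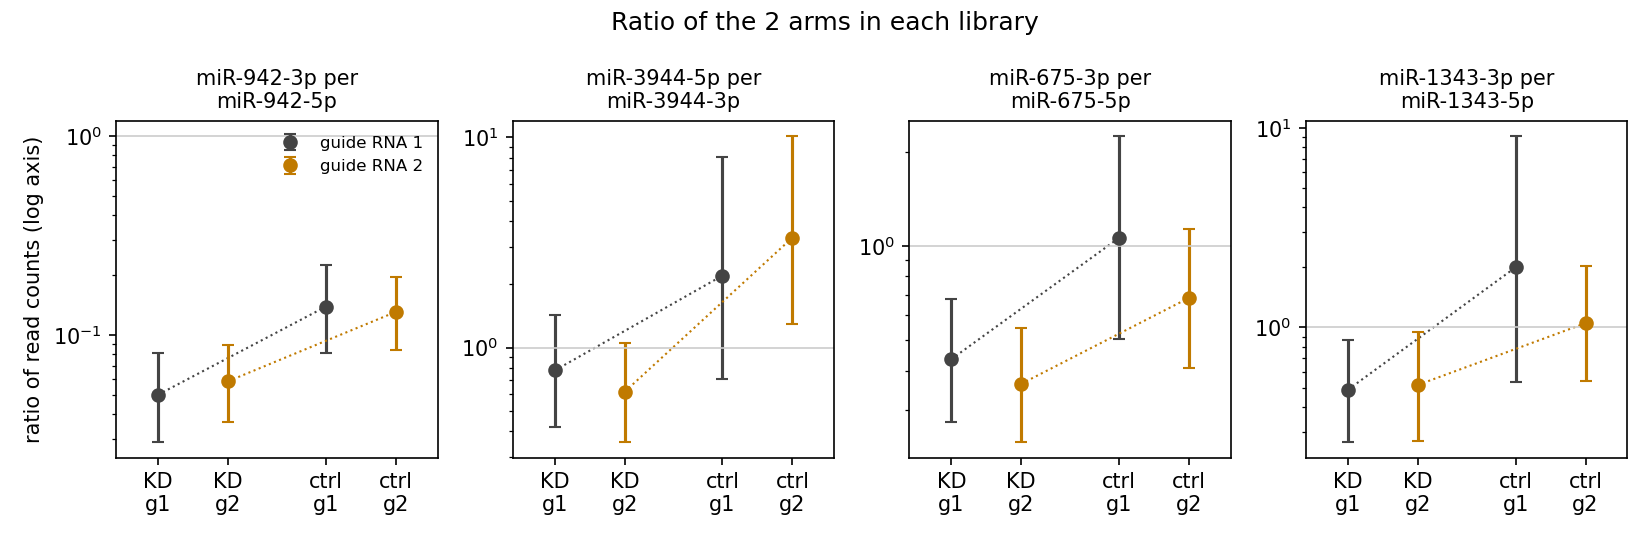
Read count of the arm with fewer summed reads per read of the other arm (log axis, each panel with its own range). The 4 libraries are shown, KD being ERH knockdown, ctrl control, and g1 and g2 the guide RNAs. Bars are 95% exact intervals from counting, and dotted lines join the libraries of 1 guide RNA: every knockdown point lies below both control points of its panel, from 0.050 and 0.058 against 0.139 and 0.130 for miR-942 to 0.778 and 0.615 against 2.20 and 3.33 for miR-3944.

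Which arm counts as the minor one is itself uncertain for 2 of the hairpins. For miR-3944, reads summed over the 4 libraries were 76 for the 5p arm and 77 for the 3p arm, while by mean CPM the 5p arm was ahead. With mean CPM as the definition, the minor-to-major ratio of miR-3944 was higher after knockdown, by 1.88 on the log2 scale, and with summed reads it was lower by the same amount. For miR-1343 the 3p arm was minor by both of these, at 65 reads against 96, but it was the major arm by mean CPM of the controls. miR-942, with 86 reads of the 3p arm and 1078 of the 5p arm, and miR-675, with 108 and 217, had the same minor arm by each definition. Arms are therefore named in each ratio here, and the 3p-per-5p ratio was lower for miR-942, miR-675 and miR-1343 and higher for miR-3944. Among the 105 other hairpins, none changed its minor arm between summed reads and mean CPM, and 1 did with the controls' mean CPM.

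Set side by side in CPM, the group means of the relatively higher arm lay farther apart than those of its partner in each hairpin. On the scale of CPM, miR-942-5p averaged 159 ± 8 after knockdown and 89.7 ± 8.6 in controls, and miR-942-3p 8.62 ± 1.40 after knockdown and 12.1 ± 1.7 in controls (SD, n = 2 each, here and below). miR-675-5p averaged 34.5 ± 5.0 after knockdown and 13.9 ± 3.8 in controls, and miR-675-3p 13.6 ± 0.2 after knockdown and 11.6 ± 0.4 in controls. miR-1343-5p averaged 15.6 ± 2.6 after knockdown and 5.44 ± 3.73 in controls, and miR-1343-3p 7.82 ± 1.01 after knockdown and 7.04 ± 2.04 in controls. Of these arms, miR-942-3p was the one with lower CPM after knockdown, and miR-1343-3p was the only arm of the 8 whose groups overlapped. miR-3944-3p averaged 14.2 ± 2.9 after knockdown and 2.96 ± 0.76 in controls, and miR-3944-5p 9.73 ± 0.42 after knockdown and 7.88 ± 0.27 in controls. In all, 7 of the 8 arms had groups that did not overlap in CPM, 6 of them with knockdown higher; over all 464 tested miRNAs, 83.4% did not overlap and 69.2% were higher after knockdown. The sum of both arms was also higher after knockdown for each hairpin, at 167 ± 10 CPM after knockdown and 102 ± 10 in controls for miR-942. The summed CPM was 48.1 ± 5.2 after knockdown and 25.5 ± 3.4 in controls for miR-675. For miR-1343 it was 23.5 ± 3.6 after knockdown and 12.5 ± 5.8 in controls, and for miR-3944 it was 23.9 ± 3.4 after knockdown and 10.8 ± 0.5 in controls.

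**Figure D2:**
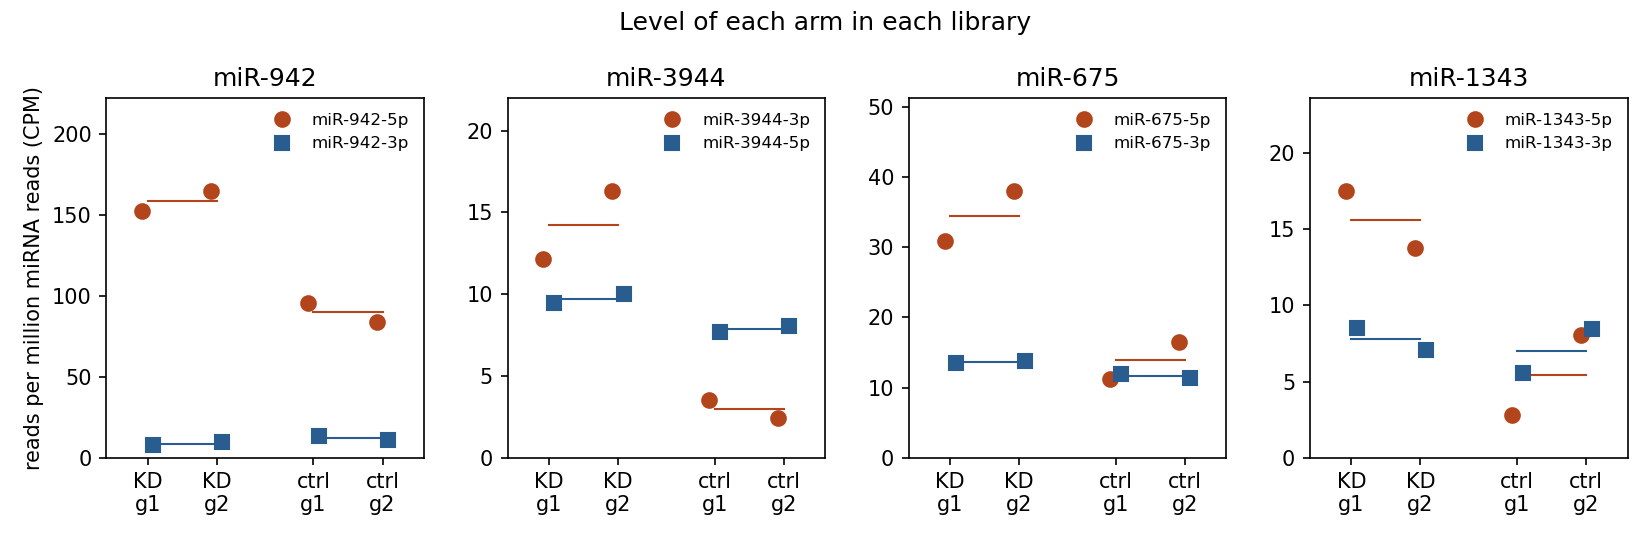
Level of each arm in CPM (linear axis from 0, each panel with its own range) in the 4 libraries, KD being ERH knockdown, ctrl control, and g1 and g2 the guide RNAs; lines are the means of 2 libraries. The arm drawn as circles averaged 159 CPM after knockdown and 89.7 in controls for miR-942-5p, and 14.2 and 2.96 for miR-3944-3p, while the arm drawn as squares differed less in CPM.

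CPM leave the composition of the libraries uncorrected, and of the partner arms only miR-942-3p had a lower group mean after knockdown in CPM. The per-miRNA fit with TMM scaling placed each partner arm below 0. In that fit, 50.9% of the 464 tested miRNAs passed the quasi-likelihood test of edgeR at a Benjamini-Hochberg adjusted p under 0.05 (25.6% upward and 25.2% downward), and 4 of the 8 arms did, 3 upward and 1 downward; since the same contrast chose the arms, nothing is read from that count. miR-3944-3p stood at 1.88 ± 0.41 on the log2 scale (knockdown over control, SE of the fit), miR-675-5p at 0.80 ± 0.24 and miR-942-5p at 0.40 ± 0.11, all 3 passing upward. miR-942-3p stood at -0.89 ± 0.30 and was the arm that passed downward. In this fit it lay farther from 0 than miR-942-5p, the reverse of the order of their group means in CPM. The others did not pass, with miR-1343-5p at 0.90 ± 0.37, miR-1343-3p at -0.37 ± 0.35, miR-675-3p at -0.20 ± 0.27 and miR-3944-5p at -0.15 ± 0.32. Over all tested miRNAs the median log2 fold change was 0.06 with TMM; scaling by library size raised it by 0.44 and scaling by the spike-in RNAs by 0.68. Under those 2 scalings miR-3944-5p, miR-675-3p and miR-1343-3p turned positive, and miR-942-3p, at -0.44 and -0.22, no longer passed, whereas miR-942-5p, miR-675-5p, miR-1343-5p and miR-3944-3p were positive and passed under both. The split of all calls was 119 up and 117 down with TMM, 273 up and 41 down with library size, 186 up and 8 down with spike-ins, and 48 up and 102 down with DESeq2, which called 1 of the 8 arms, miR-3944-3p. Each of the 4 calls was lost when some single library was left out: that of hsa-miR-3944-3p without control replicate 2 (1.59), that of hsa-miR-942-5p without replicate 2 of knockdown (0.31) or control (0.31), that of hsa-miR-675-5p without replicate 1 (0.95) or 2 (0.62) of knockdown or control replicate 1 (0.58), and that of hsa-miR-942-3p without knockdown replicate 1 (-0.72) or without control replicate 1 (-0.81) or 2 (-1.04). hsa-miR-1343-5p passed with guide RNA as a block (0.90) and stood at 2.04, passing, without control replicate 2 and at 0.47 without control replicate 1. The direction of those 3 partner arms thus depends on the scaling, whereas miR-942-3p was negative under each scaling tried, and the ratio of the arms needs no scaling.

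With the minor arm set by summed reads, each of the 4 ratios was lower in both lines, as were 39.4% of all 109 hairpins; by mean CPM that of miR-3944 was higher (1.88), and by the controls' mean CPM that of miR-1343 (1.47). With summed reads, the counting intervals of 2 of the 4, miR-942 and miR-675, lay below 1 in both lines, as they did for 11% of all hairpins, against 2.75% with both intervals above 1. Both knockdown ratios lay below both controls in 4 of the 4, and in 32.1% of all hairpins. These hairpins were chosen for that direction, and nothing is read from those counts. With limma on the log2 ratios and 1 prior variance for all hairpins, 0 of 109 were called (0%), while 21 had an unadjusted p under 0.05. With a prior variance that follows read depth, 13 were called (11.9%), with guide RNA as a block 9 (8.26%) and with a pseudocount of 5 reads in place of 0.5 the count was 6 (5.5%). All 4 hairpins were among the calls of each of these 3 versions. Weights from counting variance also called 6 (5.5%), none of them among the 4. Whether these hairpins passed depended on the version of the fit. As the same contrast chose them, nothing is read from these calls either.

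The guide RNA lines were also compared within each condition. This comparison uses the counts that chose the hairpins, so it is not independent of the choice. No difference between the lines was detectable in the 4 hairpins at this depth. On the log2 scale, the arm ratio of miR-942 with guide RNA 2 minus guide RNA 1 was 0.21 (-0.70 to 1.13) in the knockdown libraries and -0.10 (-0.99 to 0.80) in the controls. For miR-675 it was -0.26 (-1.10 to 0.58) after knockdown and -0.63 (-1.82 to 0.56) in controls. For miR-1343 it was 0.08 (-1.06 to 1.23) after knockdown and -0.85 (-2.71 to 1.02) in controls, and for miR-3944 -0.33 (-1.43 to 0.76) after knockdown and 0.59 (-1.35 to 2.53) in controls. All 8 of these counting intervals include 0. They are wide, so a line difference of 1 on the log2 scale could go unseen in any of the 4 hairpins. Among the 105 other hairpins, 80 of which have more reads than any of the 4, the interval excluded 0 in 15 between the knockdown libraries and in 21 between the controls. The median size of the difference between controls was 0.61 for the 4 hairpins and 0.21 for the others. It was 0.40 for the 21 others with 158 to 1155 reads, whose depth is nearer to that of the 4. The knockdown changes of the 2 lines differed by less than counting error, but these changes entered the choice as well, so nothing is read from that. Guide RNA 2 minus guide RNA 1 was 0.31 ± 0.65 for miR-942, 0.37 ± 0.74 for miR-675, 0.93 ± 1.12 for miR-1343 and -0.93 ± 1.14 for miR-3944 (log2 difference of changes, counting SE).

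**Figure D3:**
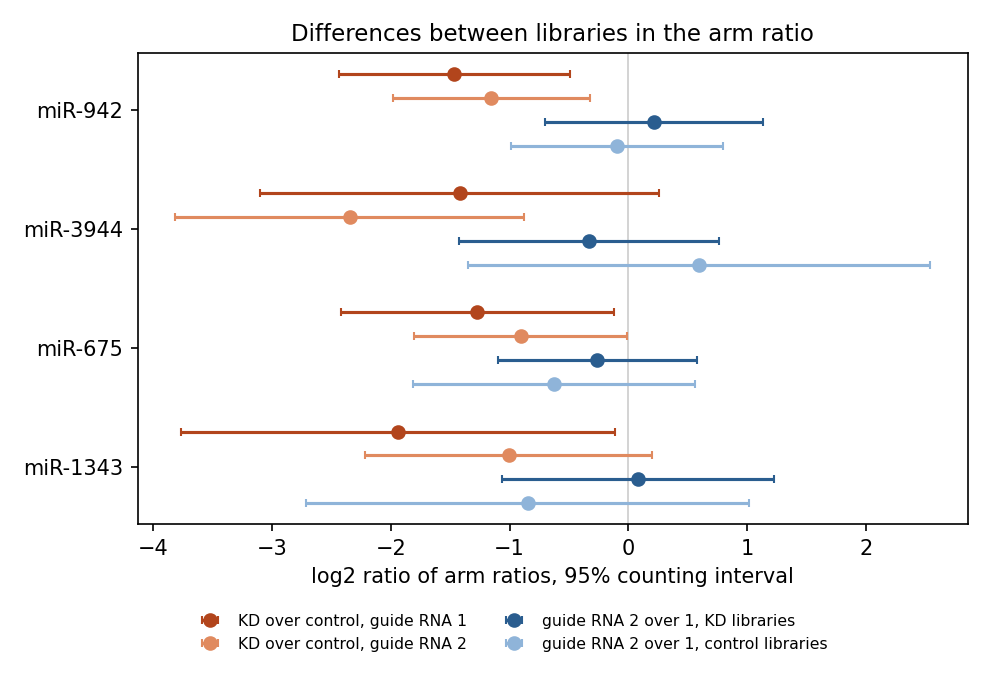
Log2 differences in the arm ratio of each hairpin with 95% counting intervals (x axis); KD over control within each guide RNA in red tones, and guide RNA 2 over guide RNA 1 within a condition in blue tones. Ratios are 3p per 5p reads except for miR-3944, where they are 5p per 3p; the knockdown differences lie between -0.91 and -2.35, and all 8 intervals between lines include 0.

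In size, the mean log2 change of the ratio was -1.88 for miR-3944, -1.47 for miR-1343, -1.31 for miR-942 and -1.09 for miR-675, which is 3.69-fold, 2.77-fold, 2.48-fold and 2.13-fold lower after knockdown. The counting SE of these mean log2 changes was 0.57, 0.56, 0.33 and 0.37 in the same order. Over the 105 others the median change was -0.06, and the median size was 0.22. By size of change in either direction, which needs no choice of minor arm, miR-3944 ranked 1, miR-1343 3, miR-942 4 and miR-675 7 of 109. With the minor arm by mean CPM, the value of miR-3944 is 1.88. miR-25 (-1.25) and miR-223 (-1.09) lay inside the range of the 4 without being among them, on 105010 and 257876 reads, and miR-212 (-0.92), on 177 reads, lay just outside it. The next lowest values with 1 sign in both lines were those of miR-148a (-0.76) and miR-33b (-0.71). The largest changes the other way in both lines were those of miR-520a (1.83), miR-580 (0.98), miR-651 (0.60), miR-185 (0.51) and miR-425 (0.50).

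Read depth differed between the 4 hairpins and most of the others. The 4 hairpins had 153 (miR-3944), 161 (miR-1343), 325 (miR-675) and 1164 (miR-942) reads over the 4 libraries, against a median of 6343 for the others. Among the 21 other hairpins with 158 to 1155 reads, the median size of the change was 0.31, and 1 of them, miR-520a, changed by at least 1. Among the 80 with more reads the median size was 0.18, and miR-25 and miR-223 changed by at least 1. The part of read depth in the size of the 4 changes was not tested. The 3 most abundant other hairpins had small changes, at -0.15 for miR-20a, -0.10 for miR-17 and -0.02 for miR-142. Of 15 hairpins listed as well-known sources of a pair of arms, 10 had both arms tested. Their changes ran from -0.38 (miR-324) to 0.43 (miR-30e) with a median of -0.07. In 3 of these 10 both counting intervals lay below 0 and in 1 both lay above, against 11% and 2.75% of all 109 hairpins. Counting intervals narrow with read depth, and miR-17, on 934841 reads, is among the 3 at a change of -0.10. Nothing is therefore read from these shares. The list was drawn up as background, but with earlier results of these data known. Across the 105 others, the changes with guide RNA 1 and guide RNA 2 correlated at 0.35 (Pearson) and 0.40 (Spearman), and for 64.8% both had 1 sign. That correlation is across hairpins, which share their libraries.

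**Figure D4:**
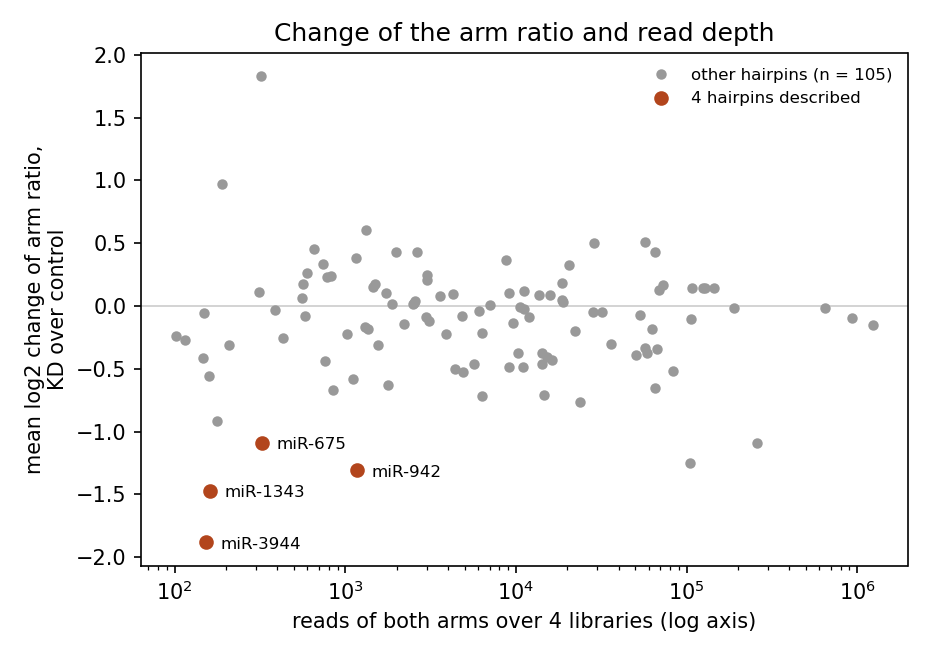
Mean log2 change of the minor-to-major arm ratio, knockdown over control (y axis), against the reads of both arms summed over the 4 libraries (log x axis), for the 4 hairpins and 105 others, the minor arm being that with fewer summed reads. The 4 hairpins lie from -1.09 to -1.88 at 153 to 1164 reads, and the points spread more widely at low depth.

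**Figure D5:**
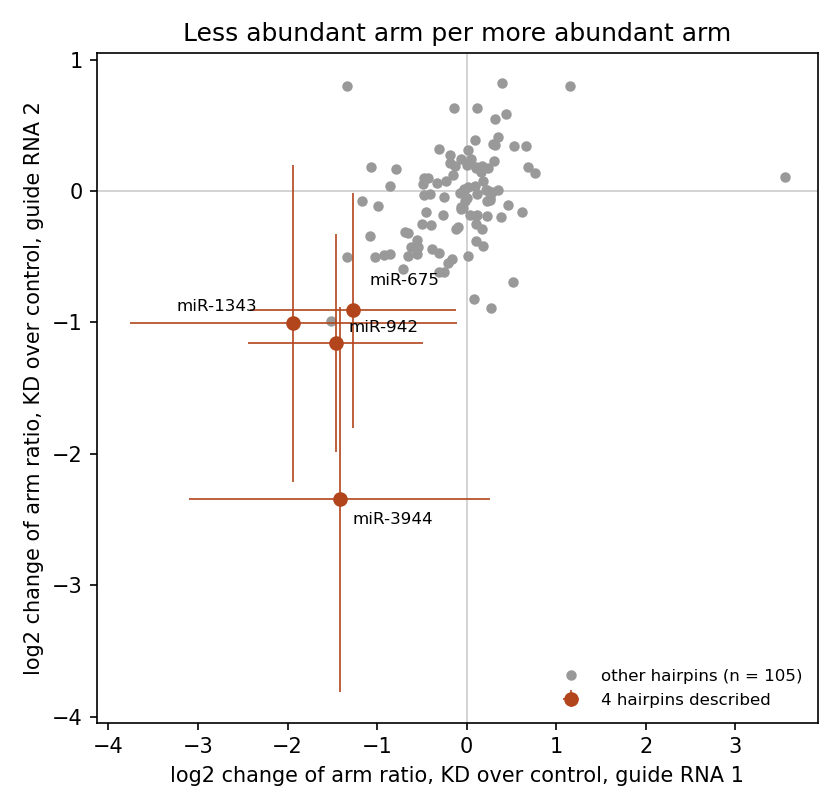
Log2 change of the minor-to-major arm ratio, knockdown over control, with guide RNA 1 (x axis) and guide RNA 2 (y axis); each point is a hairpin, and bars on the 4 hairpins are 95% counting intervals. The minor arm is that with fewer summed reads. All 4 hairpins lie in the lower left, at -1.46 and -1.15 for miR-942 and -1.42 and -2.35 for miR-3944. With the minor arm by mean CPM, miR-3944 would lie in the upper right. The intervals of miR-1343 with guide RNA 2 and miR-3944 with guide RNA 1 cross 0.

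The sequences printed above did not enter the choice directly. Choosing hairpins by a fall of the minor-to-major ratio does make the arm relatively higher after knockdown the major arm. The arm relatively higher after knockdown begins with U in all 4 hairpins, that is miR-942-5p, miR-675-5p, miR-1343-5p and miR-3944-3p. Its partner begins with C in 3 of the 4, the exception being miR-3944-5p, which also begins with U. In the 4 hairpins that arm is also the major arm by summed reads, for miR-3944 by only 77 to 76. Among the 92 other hairpins with both sequences in RefSeq, the major arm by summed reads begins with U in 57.6%. A U-starting major arm faces a C-starting minor arm in 19.6% of them. These shares are of the major arm, whichever way the ratio moved, and not of the arm relatively higher after knockdown. The median change of those other hairpins was -0.02 where the major arm begins with U and -0.10 where it does not. The bases of the arm pair are 81.8% G or C in miR-1343, 68.2% in miR-3944, 65.1% in miR-675 and 47.7% in miR-942, against a median of 48.8% in the others. The predicted duplex of the 2 arms had an energy of -37.0 kcal/mol for miR-942, whose arms are nearly full complements of each other, -31.5 for miR-3944, -27.4 for miR-1343 and -25.0 for miR-675. The median of the others was -22.8 kcal/mol, weaker than each of the 4. These are descriptions of 4 chosen hairpins, and none is shown to be particular to them.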

How the data were processed

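Small-RNA reads from TRIzol RNA, gel-purified per the labels, were deposited as raw counts, 1 whole number per mature miRNA and library; trimming, aligner, annotation release and genome build stand in no source used here. Groups came from the labels. The hairpins, gene lists and tests were chosen with earlier results of these data known. Spike-ins were left out of totals. Counts were filtered with filterByExpr (minimum count 10, minimum total 15; 464 of 2366 miRNAs, 99.9% of reads) and fitted with edgeR 4.0.16 (TMM, quasi-likelihood test, no block) in R 4.3.3. Arm ratios, log2 with 0.5 added to each count, were fitted with limma 3.58.1 over the 109 hairpins whose arms share a name and passed. Intervals on ratios of ratios are Woolf's, at 95%. Replicate numbers stand for guide RNA lines and so pair the libraries by design, although deviations of paired libraries correlated at -0.11. Within a group, libraries differed beyond sampling noise (chi-square over its degrees of freedom 4.72 after knockdown and 10.7 in controls), so none was counted as a duplicate; with 1 culture per line and condition, p-values reflect only how these libraries vary. Named other hairpins were the 5 largest changes each way with 1 sign in both lines, the 3 most abundant, and 15 listed hairpins. Duplex energies came from RNAduplex (ViennaRNA 2.7.2), and figures from matplotlib 3.10.9. DESeq2 1.42.0 and other scalings, filters, pseudocounts and left-out libraries were alternatives. Fits were tested on simulated counts.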

Additional observations from a re-analysis of the deposited data

Results flagged for a closer look

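miR-1343-3p stood on opposite sides of 0 in the 2 guide RNA lines on the CPM scale, by 0.61 with guide RNA 1 and by -0.26 with guide RNA 2 (log2, knockdown over control). It had 19 and 17 reads in the knockdown libraries and 8 and 21 in controls, and the difference between the lines was not tested.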

How the results depend on the processing

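The definition of the minor arm turned 2 ratios round: miR-3944 stood at 1.88 (3p per 5p) by mean CPM and at -1.88 (5p per 3p) by summed reads, a definition added after seeing the data, and miR-1343 at 1.47 with the controls' mean CPM. Leaving out 1 library gave log2 changes of 1.59 to 2.18 for miR-3944, -1.90 to -1.05 for miR-1343, -1.42 to -1.20 for miR-942 and -1.40 to -0.78 for miR-675. Hairpins called by limma numbered 0 without any 1 library, 13 with a prior following depth, 9 with the replicate block, 6 with a pseudocount of 5 and 6 with counting weights. miRNAs called numbered 150 with DESeq2, 231 with the replicate block and 117 to 195 without 1 library (117 without knockdown replicate 1, 140 without control replicate 2), against 236. Turned positive were miR-3944-5p (0.29 with library size, 0.52 with spike-ins), miR-675-3p (0.24 and 0.47) and miR-1343-3p (0.073 and 0.29, and -0.60 to 0.055 without 1 library, the highest without control replicate 2). The cause of these shifts was not tested. Of the 80 arm values under alternatives, 54 kept direction and call. Control reads as low as 4 limit the ratios of miR-1343 and miR-3944.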
